A study of Mus musculus with 8 samples.

Results

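The assays described here gave a threshold cycle on some cards of the array and none on others. They were chosen by measured values, as every assay of the deposited table with a threshold cycle on 1 to 7 of the 8 cards, and 106 of the 381 assays listed were found by this rule. Another 168 assays were read on every card and 102 on none, and 5 assays that also fall under the rule are not analysed here. The 106 assays comprised 88 named for mouse and 18 named for rat miRNAs, since the card holds both.

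Liver RNA came from female C57B6 mice that were 4 weeks old when treatment began. The strain is spelled as in the labels, and the study's methods write C57/BL6. Untreated mice were compared with mice injected intraperitoneally with carbon tetrachloride (CCl4) in corn oil for 1, 4 or 8 weeks, a hepatotoxin used to produce liver fibrosis; the untreated mice are labelled as having received nothing, and no vehicle group was analysed here. The labels give the dose as 1 mg/kg and the study's methods as 1 ml/kg, with 2 injections a week. Each of the 4 groups had 2 replicates on 1 card each, and nothing says that the replicates were separate mice. The submitters' design text names 4, 3 and 2 mice for the groups of 1, 4 and 8 weeks, which differs from 2 cards in each, and how the mice were spread over the cards is not given in the sources used here. So p-values measure only the spread between these cards, which may be technical.

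MicroRNAs (miRNAs) are short RNAs that guide silencing proteins to messenger RNAs, mostly through the seed, a short stretch near the 5′ end. A TaqMan assay copies 1 mature miRNA into DNA with a stem-loop primer and then follows the growth of the PCR product cycle by cycle. The threshold cycle (Ct) is reached when that signal rises past a set line, so that a low Ct means much template, and a well that never crosses the line has no Ct. Near the end of the run only a few template molecules are left per well, and whether a well is read becomes uneven. In whole liver, fewer cells of a type and less RNA per cell cannot be told apart.

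Sequences are shown for mouse miRNAs read on both cards of 1 group and on neither of the other in a comparison with untreated liver. They are given where a match to the assay name was found in the RefSeq (GRCm38.p6) sequences used here. Capitals mark the seed, bases 2 to 8, and each line runs 5′ to 3′. miR-202-3p lies at chr7:139957695-139957716 on the minus strand, miR-345-3p at chr12:108837027-108837048 on the plus strand and miR-542-3p at chrX:53049415-53049436 on the minus strand. The assays named miR-294, miR-741 and miR-9 do not give the arm of the hairpin, so both arms are shown. The arms of miR-294 start at chr7:3220655-3220676 and chr7:3220691-3220712 (plus strand), those of miR-741 lie at chrX:66796809-66796831 for the 3p and chrX:66796847-66796869 for the 5p arm (minus strand), and miR-9 is encoded at 3 loci, of which the 5p arms lie at chr3:88215613-88215635, chr7:79505279-79505301 and chr13:83738821-83738843 (plus strand). miR-291a-3p, at chr7:3218968-3218989 on the plus strand, was also among the 106 assays and is added because it has the same seed, AAGUGCU, as miR-294-3p. The assays for miR-135b, miR-375, miR-467c, miR-590-5p and miR-669a and those named for rat are given by name.
miR-202-3p: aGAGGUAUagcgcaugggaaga
miR-345-3p: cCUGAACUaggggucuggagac
miR-542-3p: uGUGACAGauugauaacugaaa
miR-294-5p: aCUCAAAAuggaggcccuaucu
miR-294-3p: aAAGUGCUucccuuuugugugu
miR-291a-3p: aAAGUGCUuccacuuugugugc
miR-741-5p: uACGUAGAuugguaccuaucaug
miR-741-3p: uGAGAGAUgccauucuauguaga
miR-9-5p: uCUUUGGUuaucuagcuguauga
miR-9-3p: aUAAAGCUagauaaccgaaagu

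The partly detected assays were faint, as the rule makes likely. Their 370 wells with a Ct ran from Ct 25.01 to 37.77 with a median of 33.38, and 74.3% lay below Ct 35. The wells of the 168 assays read on every card had a median Ct of 29.23, and 97.5% lay below Ct 35. The mean Ct of a partly detected assay, over the cards that gave one, was between 26.6 and 37.2 with a median of 34.2. It was 35 or more for 39 of the 106 assays and below 30 for 2 of them.

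The number of cards with a Ct was spread over the whole range allowed. A Ct was found on 1 card for 34 assays, on 2 for 14, on 3 for 10, on 4 for 8, on 5 for 10, on 6 for 14 and on 7 for 16. The median Ct of the wells was 35.96 for assays read on 1 card, between 33.91 and 34.45 for those read on 2 to 5 cards, and 32.87 and 32.36 for those read on 6 and 7. The heat map of all Ct values shows the brighter wells at the top, among assays read on most cards, and a scatter of faint single wells at the bottom.

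**Figure D1:**
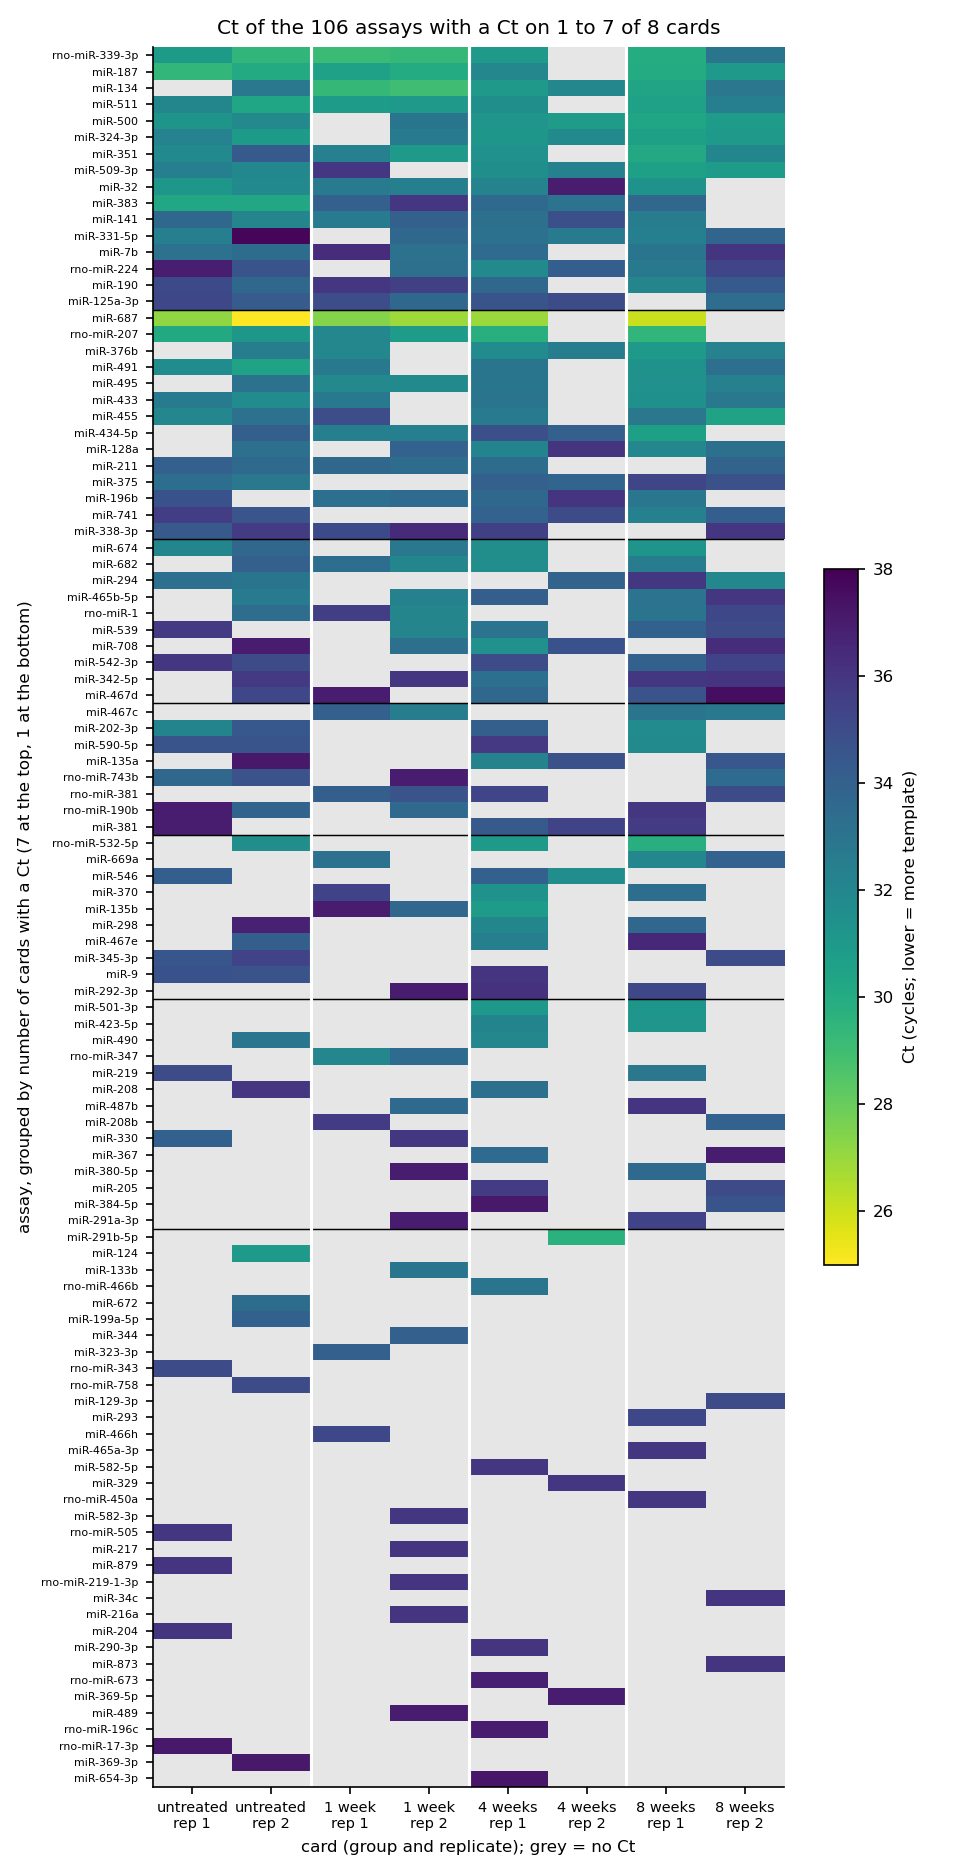
Ct in cycles of each of the 106 assays (rows, ordered by the number of cards with a Ct and then by mean Ct) on each of the 8 cards (columns, by group and replicate); grey cells have no Ct and black lines separate numbers of cards. Card 2 of the 4-week group has the most grey cells, with a Ct for 24 of the 106 assays.

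At the upper end of the rule 16 assays were read on 7 cards, and the 3 with the lowest mean Ct are given here. rno-miR-339-3p had Ct values of 30.93 and 29.45 in untreated liver, 29.14 and 29.32 at 1 week, 31.02 on card 1 at 4 weeks with none on card 2, and 29.94 and 33 at 8 weeks. miR-187 had 29.39 and 30.04, then 30.58 and 30.02, then 31.97 and no Ct, then 30 and 30.95. Both missed only card 2 of the 4-week group. miR-134, an imprinted miRNA studied in dendrites of neurons, had no Ct on untreated card 1 and 32.82 on card 2, 29.33 and 28.99 at 1 week, 30.99 and 31.97 at 4 weeks, then 30.40 and 32.83 at 8 weeks. At the lower end, the 3 faintest of the 34 assays read once were rno-miR-17-3p (Ct 37.09, untreated card 1), miR-369-3p (37.12, untreated card 2) and miR-654-3p (37.21, 4-week card 1). Just outside the rule, the faintest assay read on every card had a mean Ct of 35.2.

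A low Ct did not always go with reading on the replicate card. miR-687 had the lowest mean Ct of all 106 assays, 26.6, with Ct 27.18 and 25.01 in untreated liver, 27.39 and 26.89 at 1 week, 26.93 on card 1 at 4 weeks and 26.06 on card 1 at 8 weeks. It had no Ct on card 2 of the 4-week group or on card 2 of the 8-week group. rno-miR-207 missed the same 2 cards, with Ct 30.09 and 31.1 in untreated liver, 31.99 and 30.81 at 1 week, 29.78 at 4 weeks and 29.45 at 8 weeks. These were the dimmest cards of the 8, and the last Ct read there was 36.96 at 4 weeks and 37.51 at 8 weeks. The part of brightness in these missing wells was not tested. miR-291b-5p, from the miR-290 cluster of embryonic stem cells, had the next lowest mean Ct and was read on a single card, at Ct 29.68 on card 2 of the 4-week group. rno-miR-532-5p was read on 3 cards, at Ct 31.57 on untreated card 2, 31 on card 1 at 4 weeks and 29.84 on card 1 at 8 weeks, while the mouse assay of the same name was read on every card with a mean Ct of 28.8.

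Replicate cards often disagreed on whether an assay was read. In untreated liver 33 of the 106 assays had a Ct on both cards, 33 on 1 card and 40 on neither. At 1 week these were 24, 35 and 47 assays, at 4 weeks 20, 48 and 38, and at 8 weeks 29, 42 and 35. Of the 48 assays split at 4 weeks, 44 were read on card 1 alone and 4 on card 2 alone. Between cards of the same group 33 to 48 assays were read on 1 card only (median 38.5 over 4 pairs), and between cards of different groups 29 to 48 (median 40 over 24 pairs). Where both replicates gave a Ct, the median standard deviation of a pair was 0.71 on the log2 scale over 106 pairs, against 0.28 over 672 pairs of the assays read on every card.

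How often a replicate went missing followed the Ct over all assays on the array. Of wells with a Ct below 28, 0.402% had no Ct on the replicate card (2 of 498). The share was 1.36% between Ct 28 and 30, 5.51% between 30 and 32, 16.2% between 32 and 34 and 30.1% between 34 and 36, and it reached 63.4% at Ct 36 or more (26 of 41). The 6 wells below Ct 30 without a replicate reading belonged to miR-687, rno-miR-207, miR-291b-5p and rno-miR-532-5p.

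**Figure D2:**
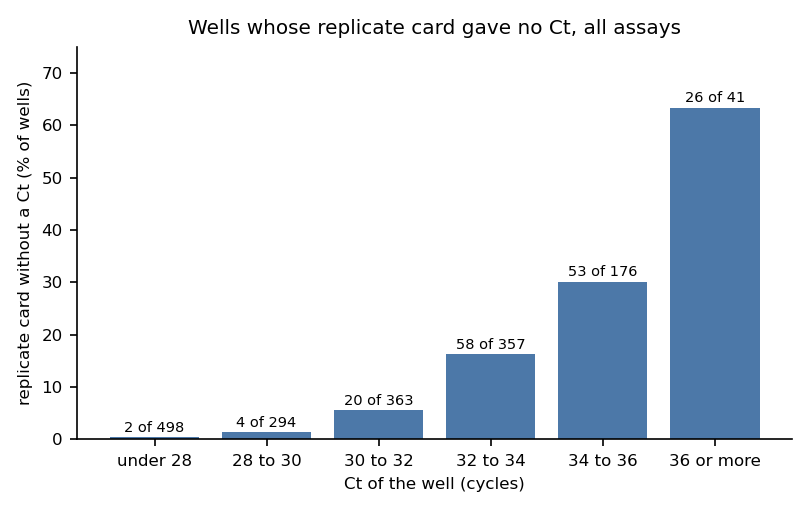
Share of wells, in percent, whose replicate card of the same group gave no Ct (y axis) by the Ct of the well in cycles (x axis), over all assays and all 4 groups; the numbers above the bars are wells without a replicate reading of all wells. The share climbs from 0.402% to 63.4% with the Ct.

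The number of partly detected assays read on a card went with the brightness of the card, measured on other assays. Brightness was the card centre, the mean Ct of 149 assays below Ct 35 on every card. The untreated cards had centres of 28.35 and 27.99. Those of the 1-week cards lay at 28.8 and 28.6, those of the 4-week cards at 28.3 and 29.8, and those of the 8-week cards at 27.5 and 28.9. Of the 106 assays, 44 and 55 had a Ct in untreated liver, 35 and 48 at 1 week, 64 and 24 at 4 weeks, then 56 and 44 at 8 weeks. In no treated group did both of these numbers lie above, or both below, the 2 untreated numbers. Over the 8 cards Pearson's r was -0.84 (p = 0.0139) and Spearman's rho -0.85 (p = 0.0112; exact two-sided permutation tests of 1 relation). Without card 2 of the 4-week group r was -0.66 (p = 0.111, exact permutation), and without the 2 cards farthest from the median centre, card 2 at 4 weeks and card 1 at 8 weeks, it was -0.70 (p = 0.128, n = 6, exact permutation). The relation thus rests in part on card 2 at 4 weeks. Without card 1 at 8 weeks alone r was -0.86 (p = 0.0183, exact permutation, n = 7). Adding the assays read on every card or on none would raise each count by the same number, so that leaving those out does not change r. The 5 assays not analysed here are not in these counts, and r was not computed with them. With brightness taken from the control small RNAs r was -0.59 (p = 0.141, exact permutation). Cards with a Ct were brighter on average than cards without one for 77 assays and dimmer for 29, and the median difference was -0.29 cycles.

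A limit matched to brightness was also tried. A Ct was then counted only if it lay no farther above its card's centre than the highest Ct of the dimmest card did, which put the limits between Ct 34.67 and 36.96. The cards then held 34 and 45 of the 106 assays in untreated liver, 31 and 35 at 1 week, 53 and 24 at 4 weeks, then 43 and 41 at 8 weeks. Card 1 at 4 weeks still held the most and card 2 at 4 weeks the fewest. The dimmest card sets this limit and so keeps all of its 24 assays, and nothing is read from the relation of these counts to brightness.

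**Figure D3:**
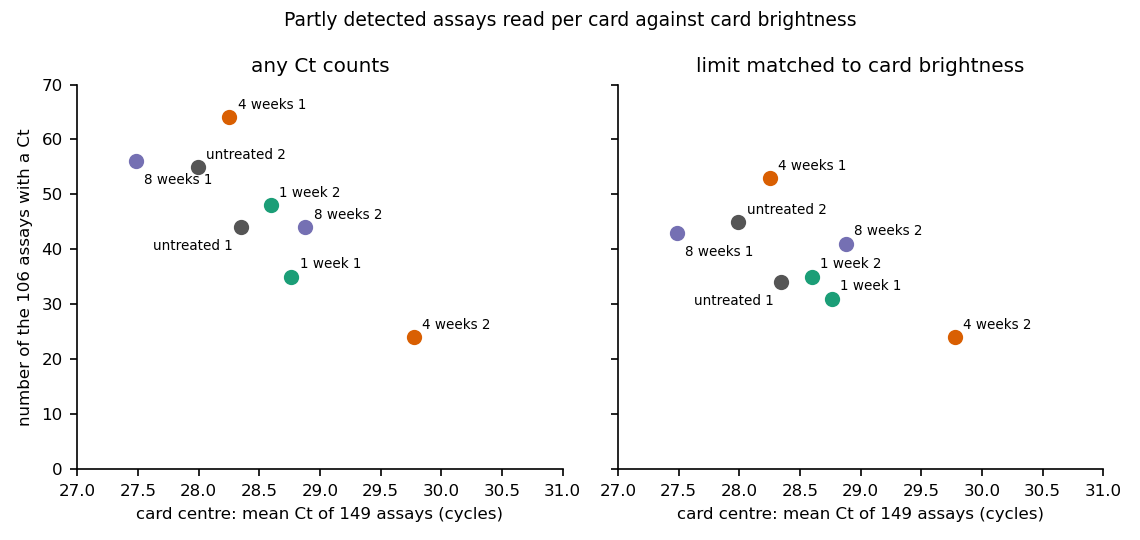
Number of the 106 assays with a Ct (y axis) against the card centre in cycles (x axis, higher is dimmer) for each card, coloured by group, with any Ct counted (left) and with the limit matched to card brightness (right). On the left the numbers fall from 64 and 56 on bright cards to 24 on the dimmest card.

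By untreated and treated cards the assays fell into 3 patterns. A Ct was found on untreated and treated cards for 56 assays, on treated cards alone for 40 and on untreated cards alone for 10, with 6 treated and 2 untreated cards to be found on. Of the 40, 24 were read on 1 card, 15 at more than 1 time and 3 at all 3 times (miR-370, miR-292-3p and rno-miR-381). miR-370, from the imprinted Dlk1-Dio3 locus, had a Ct of 35.38 on card 1 at 1 week, 31.38 on card 1 at 4 weeks and 33.32 on card 1 at 8 weeks. miR-292-3p, an embryonic stem cell miRNA, had 36.95 on card 2 at 1 week, 36.16 on card 1 at 4 weeks and 35.2 on card 1 at 8 weeks. No assay was read on all 6 treated cards and neither untreated card, nor the reverse. All 10 assays read in untreated liver alone were read on 1 card.

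No test of detection is given, since the presence of a Ct is what chose these assays. Fisher's exact test with 6 cards against 2 gives 0.0357 at the least, and even if all of the partly detected assays had reached that value, none could have passed adjustment over the 381 assays. The same test with 2 cards against 2 cannot go below 0.333, so the gains and losses at each time are descriptions. The most uneven readings between treated and untreated cards were those of miR-345-3p and miR-9, each read on both untreated cards and on 1 of 6 treated cards.

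An assay was called gained when neither untreated card and both treated cards gave a Ct, and lost when the reverse held. At 1 week 4 of the 106 assays were gained and 8 lost, where 1.57% and 2.36% of all 381 assays were gained and lost. At 4 weeks 0 were gained and 3 lost (0.262% and 0.787% of all assays), and at 8 weeks 2 were gained and 1 lost (0.787% and 0.525%). An assay read on every card or on none can be neither. These shares of all assays thus count the assays that fall under the rule, the 5 not analysed here among them, and nothing is read from them. Counting single cards, more cards than in untreated liver were read for 26, 27 and 29 assays at 1, 4 and 8 weeks, fewer for 38, 35 and 29, and as many for 42, 44 and 48. The card centres at 1, 4 and 8 weeks lay 0.512, 0.845 and 0.013 cycles above those of untreated liver, and the part of this in the counts was not tested. When 1 card was left out and the other stood for its group, the counts at 1 week were 5 to 15 gained and 12 to 19 lost.

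Loss at 1 week was seen for assays of several tissues. miR-375, best known from pancreatic islets, had Ct 33.29 and 32.79 in untreated liver, none at 1 week, 34.03 and 33.75 at 4 weeks, then 35.28 and 34.79 at 8 weeks. It was read on every card but those of 1 week. Shifted by the card centres alone, its untreated level corresponds to Ct 33.6 and 33.5 on the 1-week cards, a range in which 16.2% of wells over all assays lacked a replicate reading, as given above. miR-294, of the embryonic miR-290 cluster, had 33.23 and 32.97 in untreated liver, none at 1 week, none and 33.86 at 4 weeks, and 35.9 and 31.95 at 8 weeks. miR-202-3p, abundant in gonads, had 32.16 and 34.4 in untreated liver, none at 1 week, and a Ct on card 1 alone at 4 weeks (34.05) and 8 weeks (31.74). The distance of such a shifted level from the highest Ct read on the 1-week cards was 3.35 and 3.52 cycles for miR-375, 3.29 and 3.46 for miR-294 and 3.11 and 3.28 for miR-202-3p. It does not say whether a well would have been read, and the part of card brightness in the losses was not tested.

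For the other losses at 1 week this distance was smaller. miR-9, a miRNA of the developing brain, had Ct 34.7 and 34.65 in untreated liver and 36.03 on card 1 at 4 weeks, and none on the other cards, so that it was lost at 8 weeks too. miR-590-5p had 34.64 and 34.62 in untreated liver, 35.85 on card 1 at 4 weeks and 31.83 on card 1 at 8 weeks. For these, it was 1.72 to 1.93 cycles. miR-542-3p, from an X-linked cluster with miR-503, had 35.96 and 35.02 in untreated liver, none at 1 week, 34.97 on card 1 at 4 weeks, and 33.97 and 35.39 at 8 weeks. miR-741, from a fast-evolving X-linked cluster active in testis, had 35.66 and 34.55 in untreated liver, none at 1 week, 33.92 and 34.97 at 4 weeks, then 32.3 and 34.1 at 8 weeks. For miR-542-3p and miR-741 it was 0.90 to 1.46 cycles.

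miR-345-3p was lost at 1 and at 4 weeks. It had Ct 34.52 and 35.36 in untreated liver and a single further Ct, 34.98 on card 2 at 8 weeks. Its untreated level, shifted by the card centres, lay 1.45 and 1.62 cycles before the last Ct of the 1-week cards, and 2.19 and 0.42 cycles before that of the 4-week cards. The other losses at 4 weeks were both of assays named for rat. rno-miR-743b, of the same X-linked cluster as miR-741, had 33.66 and 34.66 in untreated liver, 36.96 on card 2 at 1 week and 33.46 on card 2 at 8 weeks. rno-miR-190b had 37.03 and 33.84 in untreated liver, 33.55 on card 2 at 1 week and 35.96 on card 1 at 8 weeks. The shifted untreated level of rno-miR-190b lay 0.08 cycles past the last Ct of card 2 at 4 weeks. With the limit matched to brightness 3 assays were again lost at 4 weeks, and 1 of them, rno-miR-743b, was the same.

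The gains included miRNAs of large rodent clusters. miR-467c, from the cluster within an intron of Sfmbt2, had no Ct in untreated liver, 34.01 and 32.47 at 1 week, none at 4 weeks, and 33.02 and 32.81 at 8 weeks, so that it was gained at both times. miR-669a, of the same cluster, had 33.11 on card 1 at 1 week, and 31.99 and 33.93 at 8 weeks. rno-miR-347 had 31.99 and 33.44 at 1 week and no other Ct. In these 3 assays every Ct lay below 35. rno-miR-381, of the Dlk1-Dio3 locus, had 34.07 and 34.65 at 1 week, 35.29 on card 1 at 4 weeks and 35.02 on card 2 at 8 weeks. miR-135b, a relative of miR-135a, had 36.96 and 33.66 at 1 week and 30.88 on card 1 at 4 weeks, the lowest of its Ct values and 1 without a replicate. The gains at 1 week fell on cards with centres of 28.8 and 28.6, against 28.35 and 27.99 for the untreated cards. The part of card brightness in the gains was not tested.

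**Figure D4:**
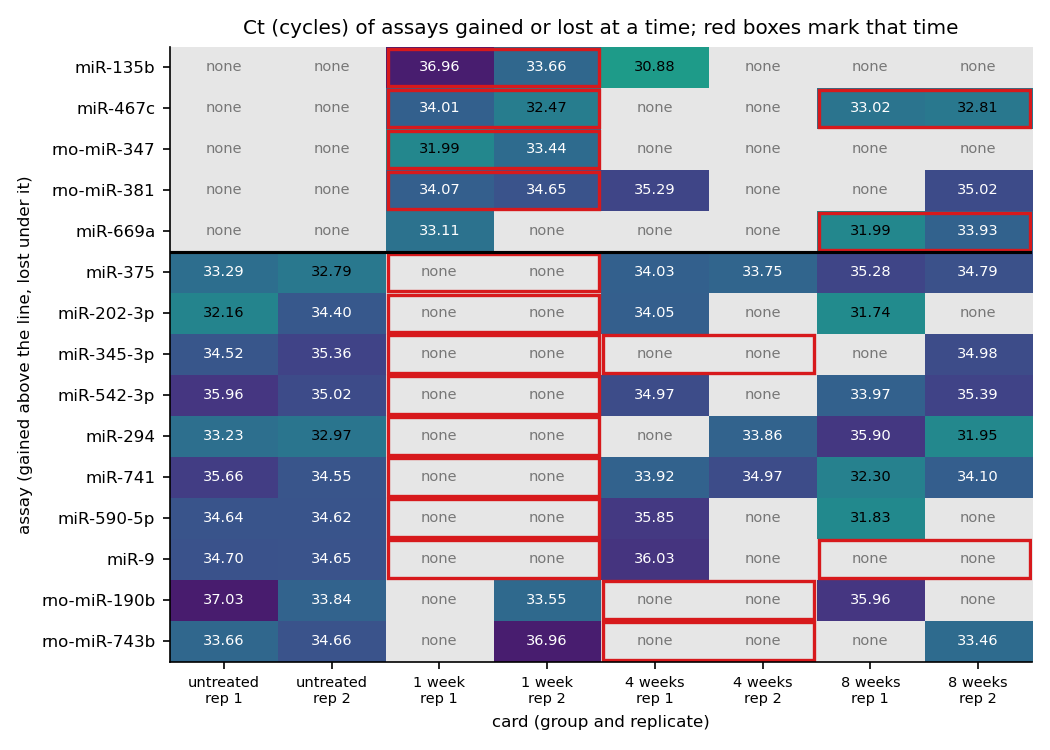
Ct in cycles (numbers and colour) of the 15 assays gained (above the line) or lost (under it) at a time, on each card by group and replicate; "none" marks a well with no Ct and red boxes mark the time of the gain or loss. Of the 10 lost assays, 8 have red boxes at 1 week.

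Which assays were gained or lost at 4 weeks hung on where detection was taken to end. Counting only a Ct below 35 or only a Ct below 37, 2 assays were gained at 4 weeks in place of 0. These were miR-708, with 37.01 on untreated card 2 and 31.42 and 34.71 at 4 weeks, and miR-135a, with 37.09 on untreated card 2 and 32.18 and 34.78 at 4 weeks. With the limit matched to brightness miR-381 joined them, with 36.98 on untreated card 1, and 34.37 and 35.31 at 4 weeks. At 1 week 3 of the 4 gains (not miR-135b) and 5 of the 8 losses (miR-375, miR-202-3p, miR-294, miR-590-5p and miR-9) were found again with that limit. At 8 weeks the gains of miR-467c and miR-669a and the loss of miR-9 were found under each of these limits, and miR-539 was gained as well with the matched limit.

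Another assay on the same card offered a second reading for some of the miRNAs, and these assays were picked out after the values were seen. For 10 of the 106 assays the card also held an assay of the same name for the other species, and for 19 an assay for the other arm of the hairpin; 5 and 8 of these second assays were read on every card. rno-miR-345-3p, the rat counterpart of the lost miR-345-3p, had Ct 29.79 and 29.57 in untreated liver, 32.5 and 31.55 at 1 week, 31.94 and 33.99 at 4 weeks, then 30.54 and 31.52 at 8 weeks. Every treated card had a higher Ct than both untreated cards. After centring, it fell by 1.83 on the log2 scale at 1 week (SE 0.39, limma adjusted p = 0.0236) and by 2.44 at 4 weeks (SE 0.39, adjusted p = 0.0135), and it was -1.34 at 8 weeks (adjusted p = 0.150). Over 17 other settings its call at 1 week was kept in 11 (adjusted p from 0.0164 to 0.267) and lost without normalization, with a missing Ct at 40 and without any 1 of the untreated or 1-week cards, while the difference stayed between -2.35 and -1.44. Its call at 4 weeks was kept in 13 (adjusted p from 0.00574 to 0.110) and lost without normalization, with a missing Ct at 40 and without card 2 of the untreated or of the 4-week group, with differences from -3.29 to -1.80. At 8 weeks its difference ran from -1.545 to -0.88 over 17 other settings. The other arm, miR-345-5p, was -0.73 at 1 week (adjusted p = 0.331) and -1.34 at 4 weeks (adjusted p = 0.115). Over 17 other settings these ran from -1.245 to -0.41 and from -2.19 to -0.59.

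Other second readings took various courses. The mouse assay miR-381, counterpart of the gained rno-miR-381, had no Ct on either 1-week card, where the rat assay was gained. On untreated card 1, where the rat assay had none, the mouse assay had 36.98. It then had 34.37 and 35.31 at 4 weeks and 35.75 on card 1 at 8 weeks. miR-542-5p, the other arm of the lost miR-542-3p, differed from untreated liver by 0.01 at 1 week (SE 0.89, adjusted p = 0.995). miR-434-3p, of the Dlk1-Dio3 locus, rose by 2.09 at 1 week (SE 0.31, adjusted p = 0.0111), and its partly detected arm miR-434-5p had no Ct and 34.08 in untreated liver, 32.37 and 32.38 at 1 week, 34.84 and 34 at 4 weeks, then 30.61 and none at 8 weeks. miR-342-3p, encoded in an intron of Evl, rose by 2.55 at 1 week (SE 0.40, adjusted p = 0.0111) and by 1.69 at 4 weeks (SE 0.40, adjusted p = 0.0258), while miR-342-5p was read on 5 cards, at Ct 33.27 on card 1 at 4 weeks and between 35.81 and 35.97 on the others. Both calls at 1 week were lost without normalization, without untreated card 1 and without either 1-week card. Over the 17 other settings the differences themselves stayed between 1.58 and 2.20 for miR-434-3p and between 2.04 and 2.89 for miR-342-3p. The call of miR-342-3p at 4 weeks was kept in 8 of 17 other settings, with differences from 0.84 to 2.33. The mouse assays miR-1, miR-207 and miR-505 had no Ct on any card, where the rat assays of the same names had one on 5, 6 and 1 cards.

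Levels could be compared where both cards of both groups gave a Ct. This held for 14 of the 106 assays at 1 week, 11 at 4 weeks and 18 at 8 weeks, and an assay that falls out of reading in a group has no value there, so these are not all of the assays and not a sample of them. Of these, 1, 1 and 0 passed an adjusted p of 0.05 in limma, where 21.4%, 24.6% and 1.08% of all assays tested did. Before adjustment 1, 2 and 2 were under 0.05, where 68 of 182, 68 of 179 and 32 of 186 of all assays tested were. The median differences were -0.14, 1.00 and 0.81 on the log2 scale, beside -0.08, 0.09 and 0.03 over all assays tested. To be compared at 4 or 8 weeks, an assay had to be read on card 2 of that group, the dimmest cards of the 8. A faint assay is read there only at a higher level after centring, which can raise these medians. The part of this was not tested, and no rise is read from them.

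miR-383, a miRNA described in brain and testis, had Ct 30.22 and 30.28 in untreated liver, 34 and 35.96 at 1 week, 33.56 and 33.04 at 4 weeks, then 33.71 and none at 8 weeks. Every treated card that gave a Ct had a higher one than both untreated cards. It fell by 4.22 on the log2 scale at 1 week (SE 0.95, adjusted p = 0.0306) and was -2.20 at 4 weeks (SE 0.95, adjusted p = 0.152). The difference at 4 weeks ran from -3.225 to -1.18 over 17 other settings. The fall at 1 week was called in 10 of 16 other settings (adjusted p from 0.0139 to 0.221). It was not called with the replicate number as a block or when a missing Ct was set to 40, nor without untreated card 1 (-4.01), untreated card 2 (-4.42), card 1 at 1 week (-5.28) or card 2 at 1 week (-3.15).

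rno-miR-224 had Ct 36.93 and 34.62 in untreated liver, none and 33.19 at 1 week, 31.81 and 34.09 at 4 weeks, then 32.72 and 35.26 at 8 weeks. It lay 3.67 higher at 4 weeks (SE 0.78, adjusted p = 0.0258) and differed by 1.80 at 8 weeks (SE 0.78, adjusted p = 0.257). A comparison needed a Ct on all 4 cards. Shifted to card 2 at 4 weeks, its mean untreated level (-7.61 after centring) lies past the last Ct of that card, 36.96. An unchanged level could thus have gone unread there and left no comparison, and the part of this in the difference was not tested. The difference at 8 weeks ran from 0.82 to 2.78 over 16 other settings. The mouse assay miR-224, read on every card, had 33.67 and 32.3 in untreated liver and 32.18 and 34.95 at 4 weeks, a difference of 0.27 (SE 0.56, adjusted p = 0.760). The rise of the rat assay was called in 9 of 16 other settings (adjusted p from 0.0115 to 0.381). It was not called with cards centred on the mean of their determined assays (3.39), without normalization (2.83) or with a missing Ct at 40, nor without untreated card 1 (2.69), untreated card 2 (4.65), card 1 at 4 weeks (3.29) or card 2 at 4 weeks (4.05).

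miR-741 had no level at 1 week, where it was lost, and lay 1.51 above untreated liver at 4 weeks (SE 0.41, adjusted p = 0.0508) and 1.92 above it at 8 weeks (SE 0.41, adjusted p = 0.141). All 4 of these treated cards were above both untreated cards after centring. Over 16 other settings the differences of miR-741 ran from 0.66 to 2.15 at 4 weeks and from 1.54 to 2.38 at 8 weeks. miR-375 differed by -0.0049 at 4 weeks (SE 0.84, adjusted p = 0.996, from -0.91 to 0.90 over 17 other settings). At 8 weeks it differed by -1.98 (SE 0.84, adjusted p = 0.251, from -2.925 to -1.04 over 16 other settings).

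Between treatment times, 7, 10 and 10 of the 106 assays could be compared (4 weeks with 1 week, 8 with 1 and 8 with 4), and 1, 1 and 0 were called, where 36.6%, 10.7% and 0.0% of all assays tested were. No assay of the 10 compared between 8 and 4 weeks was under 0.05 before adjustment either, where 21 of all 178 tested were. The 1 assay called was miR-134 in both comparisons with 1 week. With 1 of the compared cards left out, 0 to 1 assays were called between 4 weeks and 1 week, with miR-509-3p, miR-32 or miR-434-5p in place of miR-134, and 3 to 51 of all assays in place of 64. Between 8 weeks and 1 week 0 to 2 were then called, and 0 to 14 of all assays in place of 19. With these 2 groups alone, or without either 4-week card, 3 were called there, with miR-190 (higher) and rno-miR-339-3p (lower) beside miR-134. With the control RNAs, the call between 4 weeks and 1 week was that of miR-383 (higher), and without normalization there was none in either comparison. The centred values of miR-134 stood at -0.57 and -0.39 after 1 week, -2.74 and -2.20 after 4 weeks, then -2.92 and -3.95 after 8 weeks. Its 1 untreated card with a Ct stood at -4.83. The level at 4 weeks was lower than at 1 week by a difference of -1.99 (SE 0.46, adjusted p = 0.0292), and at 8 weeks by -2.95 (SE 0.46, adjusted p = 0.0215). With a single untreated Ct, miR-134 was not compared with untreated liver in the fit of all 8 cards. When untreated card 1, which had no Ct, was left out, miR-134 lay 4.35 higher at 1 week than on the other untreated card. That difference rests on 1 untreated well, so the spread in untreated liver was not measured. The groups at 1 week and at the later times did not overlap.

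**Figure D5:**
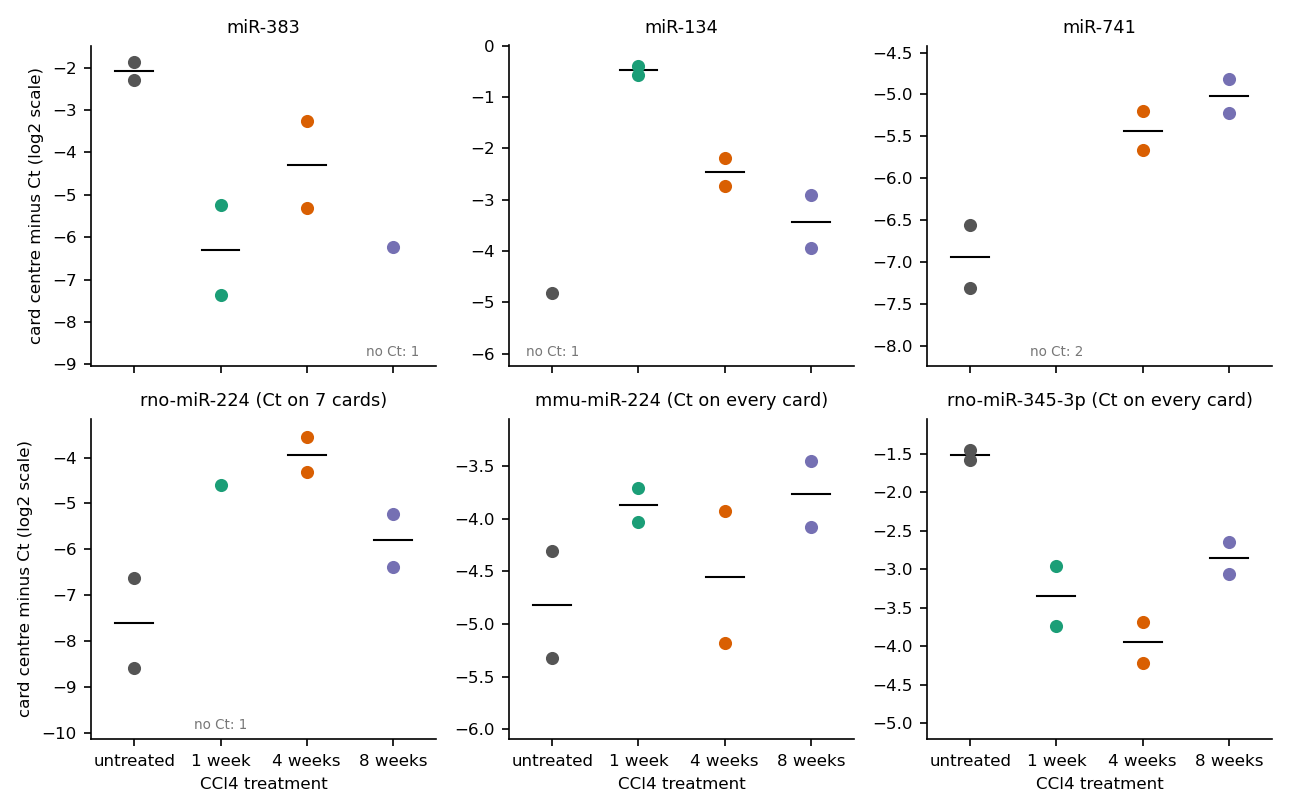
Level on the log2 scale (card centre minus Ct, y axis, a scale of its own in each panel) by treatment group (x axis) for 4 partly detected assays and for 2 second assays read on every card; points are cards, black lines the mean of 2 cards, and grey notes count cards with no Ct. miR-383 and rno-miR-345-3p lie lower on all treated cards with a Ct than on both untreated cards.

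Families and tissues are described by counts, beside the 27.8% of all assays listed that were partly detected, and no list was tested against the other assays. Of 12 assays of the embryonic stem cell clusters of miR-290 to miR-295 and of miR-302 and miR-367, 7 were partly detected, 1 was read on every card and 4 on none. The 7 were miR-294, described above, miR-292-3p, miR-367 (33.46 on card 1 at 4 weeks and 37 on card 2 at 8 weeks), miR-291a-3p (36.95 on card 2 at 1 week and 35.37 on card 1 at 8 weeks), miR-291b-5p, miR-293 and miR-290-3p. On treated cards alone 6 of them were read, beside 40 of all 106 partly detected assays, with 6 treated and 2 untreated cards. Between 0 and 4 of the 7 were read per card, with 1 on each untreated card. Of 11 assays of the Sfmbt2 cluster, 6 were partly detected (miR-467d, miR-467c, miR-669a, miR-467e, rno-miR-466b and miR-466h), 2 were read on every card and 3 on none. Untreated cards held 0 and 2 of these 6, the 1-week cards 4 and 1, the 4-week cards 3 and 0 and the 8-week cards 4 and 3. miR-467d, read on 5 cards, had 35.23 on untreated card 2, 36.99 on card 1 at 1 week, 33.67 on card 1 at 4 weeks, and 34.69 and 37.51 at 8 weeks.

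The imprinted Dlk1-Dio3 locus, a large miRNA cluster expressed from the maternal chromosome 12, gave the longest list. Of its 49 assays counted here 18 were partly detected, 13 read on every card and 18 on none. Of the partly detected 18, 9 were read on treated cards alone, beside 40 of all 106 partly detected assays. The cards held 3 and 7 of the partly detected 18 in untreated liver, 8 and 7 at 1 week, 11 and 6 at 4 weeks, then 10 and 6 at 8 weeks. miR-376b had no Ct and 32.53 in untreated liver, 31.98 and none at 1 week, 31.75 and 32.54 at 4 weeks, then 30.95 and 32.23 at 8 weeks. miR-495 had none and 33.15, then 31.9 and 31.8, then 32.97 and none, then 31.41 and 32.32. miR-433 had 32.61 and 31.73 in untreated liver and between 31.45 and 33.01 on 4 treated cards. miR-134, miR-376b, miR-495, miR-434-5p, rno-miR-758 and miR-369-3p were read on untreated card 2, the brighter of the pair, and not on card 1, whereas miR-539 (35.81) and miR-381 (36.98) were read on card 1 and not on card 2. From the X-linked Fmr1-Slitrk2 cluster 4 of 22 assays were partly detected, 1 was read on every card and 17 on none.

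Among miRNAs of other tissues, 11 of 24 neuronal assays were partly detected and 9 read on no card. They included miR-383, miR-128a (33.19 on untreated card 2, 33.91 on card 2 at 1 week, 32.12 and 35.98 at 4 weeks, 31.97 and 33.19 at 8 weeks), miR-135a and miR-135b. Of 7 muscle assays, 4 were partly detected. rno-miR-1, named for a miRNA of striated muscle, had 33.37 on untreated card 2, 35.61 and 32.1 at 1 week, none at 4 weeks, and 32.98 and 35.16 at 8 weeks. The mouse assay miR-1 had no Ct on any card, and whether the rat assay reads the mouse miRNA was not tested. miR-208 and miR-208b, encoded in cardiac myosin genes, were read on 2 cards each, and miR-133b on 1. Of 4 pancreatic assays, 3 were partly detected, which were miR-375 and, with 1 Ct each on card 2 at 1 week, miR-217 (35.97) and miR-216a (35.99).

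For cell types that liver is known to hold, partly detected assays made up 0 of 4 hepatocyte assays, 0 of 10 leukocyte and erythroid assays, 1 of 6 mesenchymal assays (16.7%) and 2 of 9 epithelial assays (22.2%), beside the same 27.8%. All 4 hepatocyte assays were read on every card, among them miR-122, the most abundant hepatocyte miRNA, at Ct 21.95 to 24.16, and miR-192 at 20.83 to 25.96. Of 10 leukocyte and erythroid assays 9 were read on every card and 1 on none. Of 6 mesenchymal assays 5 were read on every card, and miR-199a-5p had a single Ct, 33.97 on untreated card 2, while its other arm miR-199a-3p was read on every card with a mean Ct of 27.7. Of 9 epithelial assays 7 were read on every card, miR-141 on 7 cards, with 33.64 and 32.06 in untreated liver, 32.67 and 33.99 at 1 week, 33.18 and 34.82 at 4 weeks and 32.51 on card 1 at 8 weeks, and miR-205 on 2. miR-196b, encoded in a Hox cluster, was read on 6 cards and was the 1 partly detected assay of 5 for Hox miRNAs. Of the 40 assays named for rat, 18 were partly detected, 2 read on every card and 20 on none.

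Assays read on 1 card were mostly at the faint end. Their Ct ran from 29.68 to 37.21 with a median of 35.96, and 24 of the 34 were on treated cards, which make up 6 of the 8 cards. By card, 5 and 5 were found in untreated liver, 2 and 7 at 1 week, 6 and 3 at 4 weeks, then 3 and 3 at 8 weeks. Of the 16 assays missing on 1 card, 6 missed card 2 at 4 weeks, 4 card 1 at 1 week and 3 card 2 at 8 weeks, the dimmer card of each pair, and 1 each missed untreated card 1, card 2 at 1 week and card 1 at 8 weeks.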

How the data were processed

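Small RNAs of mouse liver were assayed by quantitative PCR on TaqMan Array cards (the rodent A card), and the authors deposited the Ct values (cycles, one value per assay and card, not normalized; a well without a Ct is empty). The software that set the threshold is not given in the sources used here. The authors also deposited fold changes against untreated liver, made with DataAssist 0.50 after geometric mean normalization with a maximum allowable Ct of 39; those columns hold their own comparisons and were not used.

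Each Ct was subtracted from its card centre, the mean over 149 assays that stayed below Ct 35 on all cards, which is close to a log2 level if each cycle doubles the product. Missing Ct values were left missing. Levels were compared by limma (version 3.58.1, R version 4.3.3), with lmFit and eBayes on 1 model of the 8 cards (assays with a Ct on at least 4 cards, prior degrees of freedom 2.47), for assays with a Ct on all 4 cards compared, with Benjamini-Hochberg adjustment within each comparison at 0.05. The self-test drew cards with known changes. Fisher's exact tests of detection were run over 381 assays and are not read, since the rule used the same values, and brightness was tested by exact permutation (scipy 1.17.1).

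Assays named one by one were those gained, lost or called, the 5 with the lowest mean Ct, 3 at each end of the rule and up to 4 per list; any others were chosen after their values were seen. The rule, the lists and the tests were chosen with earlier results of these data known. Alternatives were other centrings, Ct limits of 35 and 37, limits matched to brightness, missing values at 40, a replicate block, a trend, the compared groups alone and each card left out; the limit from the dimmest card's highest Ct, the comparisons between times, the second assays and the omission of 2 cards were added after seeing the data. Replicate numbers were not taken to pair the cards. Correlations of the replicate differences between groups ran from -0.50 to 0.42, which does not settle whether they do. Of the 88 mouse assays, 28 matched a RefSeq name and 36 both arms. The number of cards limits the precision.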

Additional observations from a re-analysis of the deposited data

Results flagged for a closer look

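The level of miR-134 differed between treatment times. From the 1-week to the 4-week cards it changed by -1.99 on the log2 scale (SE 0.46, limma adjusted p = 0.0292), and from the 1-week to the 8-week cards by -2.95 (SE 0.46, adjusted p = 0.0215). It is listed here because the difference between treated groups was itself tested. The first was called in 10 of 17 other settings (adjusted p from 0.0155 to 0.557) and not with cards centred on the control RNAs (-1.11), without normalization (-2.32) or with a missing Ct at 40, nor without either 1-week card (-2.07 and -1.90) or either 4-week card (-1.72 and -2.26), and the second in 12 of 17 (0.00740 to 0.477) and not without normalization (-2.46) or with a missing Ct at 40, nor without either 1-week card (-3.04 and -2.87) or card 2 at 8 weeks (-2.44). Each of the 6 treated cards had a Ct, and untreated card 1 had none.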

How the results depend on the processing

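Reading at the end of the run and 2 cards a group set the limits. The gains and losses at 1 and 8 weeks stayed within 1.5 times their counts under each Ct limit tried. At 4 weeks 2 assays were gained with a Ct limit of 35, 2 with 37 and 3 with the limit matched to brightness, in place of 0. With 1 card left out, 5 to 15, 3 to 15 and 3 to 12 assays were gained and 12 to 19, 4 to 21 and 6 to 10 lost at 1, 4 and 8 weeks, since 1 card then stood for its group. The correlation with brightness was -0.59 with the control RNAs, -0.70 without the 2 farthest cards and -0.92 to -0.66 without 1 card. Of the partly detected assays, 1 was called in limma at 1 week, and 5 were with a missing Ct at 40 (miR-375, miR-467c, miR-741, miR-9 and rno-miR-347, each with 40 on both cards of a group, so that these calls rest on the missing Ct that the rule used and are not read), 0 with a Ct of 35 or more as missing (miR-383 then had too few values; 0 under an unadjusted 0.05) and 0 to 1 without 1 card (miR-134 in place of miR-383 without untreated card 1). At 4 weeks 1 was called, and 0 were with the mean of all determined assays (2 under an unadjusted 0.05), 0 without normalization (3), 0 with a missing Ct at 40 (11) and 0 with a Ct of 35 or more as missing (1), 2 with the control RNAs (miR-741 added) and 0 to 2 without 1 card (miR-135a and miR-331-5p without untreated card 1, miR-32 without card 1 at 4 weeks). At 8 weeks 0 were called (2 under an unadjusted 0.05), 1 with the control RNAs (miR-741) and 0 to 0 without 1 card. Where an arm was left with 1 card, that card is assumed to vary like the other groups. With the replicate block, where the numbers are not known to pair cards, 0, 1 and 0 were called (2, 4 and 4 under an unadjusted 0.05). Over all assays 39, 44 and 2 were called. With the mean of all determined assays these were 24, 20 and 0, with the median of the assays on every card 28, 27 and 0, with the control RNAs 31, 40 and 4, without normalization 3, 0 and 0, and with a missing Ct at 40 24, 3 and 0. Fewer of all assays were called at each time when any 1 of the compared cards was left out. A group then held 1 card, which also weakens the test. How far the shares of all assays called rest on single cards therefore cannot be told. The differences named and called kept their direction. Among those not called, miR-375 at 4 weeks turned in 3 of 17 other settings (-0.91 to 0.90), miR-224 at 4 weeks in 4 (-0.58 to 0.91) and miR-542-5p at 1 week in 6 (-0.79 to 0.81). The control RNAs moved the median of all assays from 0.09 to 0.73 at 4 weeks and from 0.03 to 0.49 at 8 weeks, and no normalization moved it from -0.08 to -0.59 at 1 week and to -0.76 at 4 weeks; the causes of these shifts were not tested.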

Other observations

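Ct values gathered close to whole cycles. Of the 370 wells of the partly detected assays, 109 (29.5%) lay within 0.05 of a whole number, and of the 1344 wells of the assays read on every card 22.1% did, where an even spread over 2 decimals would give 11%. Among the partly detected assays the share was 11.8% below Ct 30 (2 of 17), 26.9% between 30 and 32, 18.9% between 32 and 34, 40% between 34 and 36 and 51.5% at 36 or more (17 of 33). Of the 34 assays read on a single card, 24 (70.6%) had such a Ct, and among them miR-329, rno-miR-450a, miR-582-3p, rno-miR-505, miR-217, miR-879, rno-miR-219-1-3p, miR-34c and miR-216a lay between 35.95 and 35.99. The cause was not tested.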
